A study of Mus musculus with 25 samples.

Results

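The 32 genes described here encode scaffold, adhesion and signalling proteins of the postsynaptic side of synapses. Most belong to the postsynaptic density, the protein layer under the membrane of excitatory synapses, and Nlgn2 is known from inhibitory synapses. They were chosen by gene symbol, matched to the Ensembl identifiers of the expression table through GENCODE M21 names, and all 32 were found among the 23990 genes of the table. The list holds 4 membrane-associated guanylate kinases (Dlg1 to Dlg4), 4 SAPAP proteins (Dlgap1 to Dlgap4), 3 SHANK proteins, 2 HOMER proteins, 3 genes of CaMKII and calmodulin signalling, 5 adhesion molecules, 3 AMPA receptor auxiliary subunits, 5 regulators of small GTPases and actin, and 3 other scaffold proteins.

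RNA-seq was performed on bulk prefrontal cortex of C57BL/6 wild-type mice aged 10 weeks, in 25 samples and 6 groups: control, stressed with vehicle and stressed with treatment, each in males and females. Stress was social defeat, and the treatment was dihydrocaffeic acid with malvidin-glucoside, given from before the defeat sessions until their end. The 5 libraries analysed here are the males that received social defeat stress and vehicle, named replicates 1 to 5. Their column letter is the only one numbered up to 5 and their group is the only one with titles up to 5, so the match reads the letter as the group and the number as the replicate. The other 20 columns carry only a letter and a number that fit several groups, and they entered no step. No contrast of stress, treatment or sex was therefore made, and every result below describes variation among these 5 libraries. Nothing in the labels says that the libraries stem from different animals, and the p-values below measure only the spread between these libraries, which may be technical.

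The postsynaptic density is built in layers. Membrane-associated guanylate kinases such as PSD-95, the product of Dlg4, hold glutamate receptors and their auxiliary subunits near the membrane. SAPAP proteins tie the guanylate kinases to SHANK proteins, which lie deeper, bind HOMER proteins and connect to the actin skeleton of the dendritic spine. The kinase CaMKII is abundant there and is needed for the lasting strengthening of excitatory synapses in cortex and hippocampus.

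The 5 libraries held 34565147 to 44265039 reads over genes, and 21790 to 22277 genes had reads. A level of 3 reads, the limit that a count of 0 allows, lay between 0.0673 and 0.0870 CPM (counts per 1000000 reads), and it covers counting error only. All 32 genes were far above it: the member reads of a single library ran from 158, for Homer3, to 143126, for Camk2a. Levels in CPM compare a gene between libraries, and levels in RPKM (CPM per kilobase of exon) compare genes with each other. Marker lists were set beside the label of prefrontal cortex. None of the listed markers in the table was under the 3-read level in these libraries. This held for every list, those of other tissue included, so it cannot check the region. Slc17a7, the cortical vesicular glutamate transporter, stood at 1926 ± 94.3 CPM (SD, n = 5). The 10 markers of striatal projection neurons together summed to between 292.6 and 376.7 CPM. CPM takes no account of gene length, so these levels of different genes are descriptions and do not test the region. Replicate 4 stood apart in 2 lists that mark other tissue. Its score, the mean log2 deviation of the listed genes from their means over the 5 libraries, was 1.10 for leptomeningeal and fibroblast markers and 1.15 for blood markers, against no more than 0.16 in any other library. Replicate 3 had the highest score for oligodendrocyte markers and for the striatal markers. The striatal score was 0.238 in replicate 3, against -0.115 to -0.0314 in the other libraries. Of the 10 striatal markers, 2 were higher in replicate 4 than in replicate 3. Several of the spreads that rest on replicate 3 or 4 are also given without that library.

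The 32 genes were well expressed as a group. Their median level was 247.6 CPM, against 22.4 CPM over the 14524 genes of at least 1 CPM. CPM takes no account of length, and the median exon length was 7222.5 bases in the list against 4466 over those genes. The part of length in this difference was not tested. Of the 32, 22 reached 100 CPM, 5 reached 1000 CPM (Camk2a, Nrgn, Ppp1r9b, Agap2 and Dlg4), and Homer3 alone stayed under 10 CPM.

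**Figure D1:**
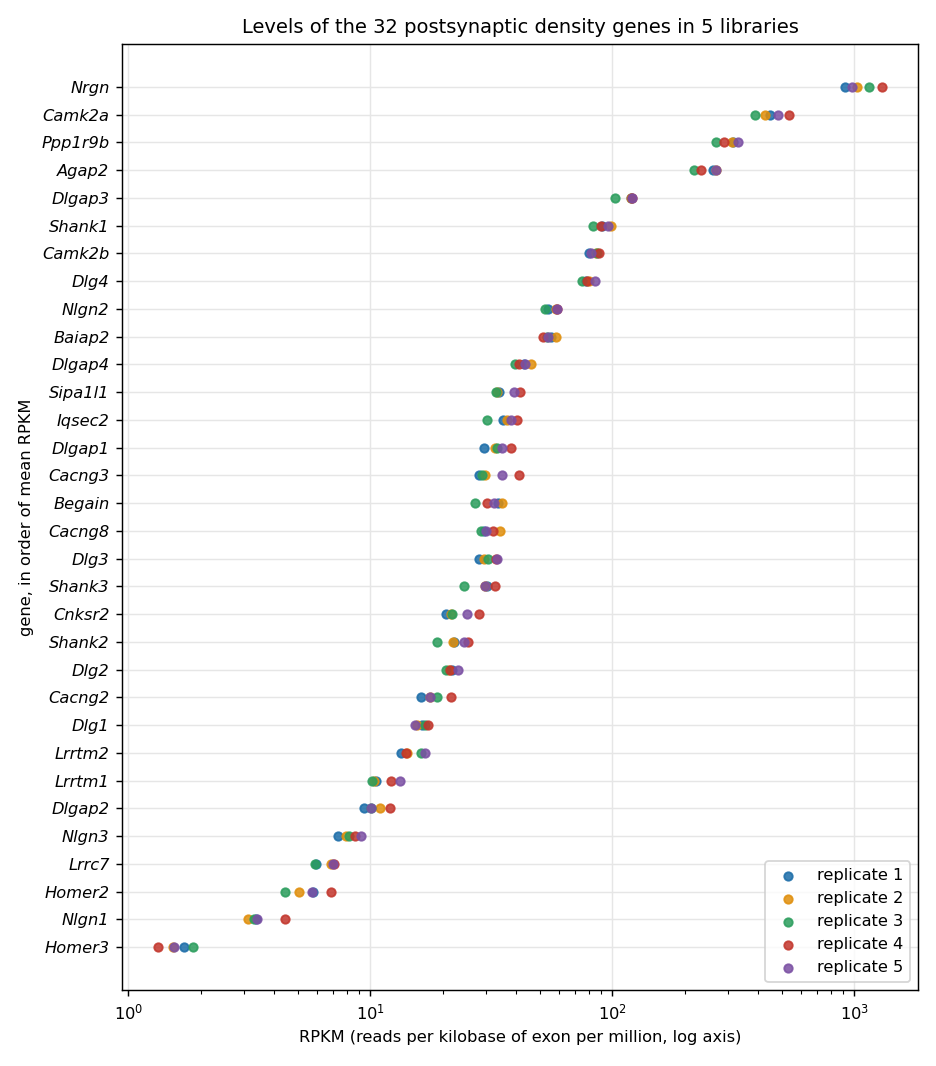
Level of each of the 32 genes in RPKM on a log axis, one point per library, with genes ordered by their mean over the 5 libraries. Nrgn and Camk2a lead at 1074 and 456 RPKM, and Homer3 closes the order at 1.59 RPKM.

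Per kilobase of exon, Nrgn had the highest level of the list at 1074 ± 153 RPKM (SD, n = 5). It encodes neurogranin, a small postsynaptic protein that binds calmodulin when calcium is low. Camk2a, the alpha subunit of CaMKII, followed at 456 ± 56.8 RPKM, then Ppp1r9b at 303 ± 23.9 RPKM and Agap2 at 249.1 ± 23.5 RPKM. The lowest levels were those of Homer2 at 5.58 ± 0.912 RPKM, Nlgn1 at 3.53 ± 0.528 RPKM and Homer3 at 1.59 ± 0.196 RPKM. The ranges over the 5 libraries of Nrgn, Camk2a and Ppp1r9b did not overlap, nor did those of Homer2, Nlgn1 and Homer3, while those of Ppp1r9b and Agap2 did. In the middle of the order the neighbours were not separated. From Dlgap4 at 42.7 RPKM down to Lrrtm2 at 14.9 RPKM, each gene's range overlapped that of the next, and over the whole order 20 of 31 neighbouring pairs overlapped. The plot of levels by gene shows this as a smooth slope between 2 steep ends. Levels and order depend on the length assigned to a gene. With the longest transcript in place of all exons, Dlg4 moved from 79.1 to 165.6 RPKM and Camk2b from 84.4 to 186.7 RPKM. Their ranks changed little, from 8 to 6 and from 7 to 5, while Dlg2 moved from rank 22 to 14 and Cacng3 from 15 to 21.

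Every one of the 32 genes varied between the 5 libraries by more than counting error, by a chi-square test of whether reads followed library size, with Benjamini-Hochberg adjustment over 19239 genes. The same test called 74.4% of all genes, and 98.1% of the 2206 genes of at least 100 CPM. With 22 of the 32 genes at 100 CPM or more, a call was therefore the usual outcome at this depth and does not set these genes apart. The size of the variation is described by the coefficient of variation (CV) that remains after the counting part is removed. Its median was 9.45% for the 32 genes (quartiles 6.72% and 11.0%), against 8.25% over genes of at least 1 CPM (quartiles 5.18% and 13.5%). The position relative to all genes rested on replicate 3: without it the medians were 6.88% for the list and 8.13% for all genes. The median ratio of the highest to the lowest library was 1.25 in the list and 1.26 over all genes. Homer2 was the single gene of the list with a ratio of at least 1.5, and 12 genes stayed under 1.2.

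The MAGUK genes were among the steadiest of the list. Dlg4, which encodes PSD-95 (chr11:70016942-70047522, plus strand), had 1026.5, 1061, 989, 1040.3 and 1122 CPM in replicates 1 to 5. Its 5 libraries lay within a ratio of 1.14, with replicate 3 lowest and replicate 5 highest, and its CV beyond counting error was 4.66%. Dlg2, which encodes PSD-93, had 355, 343, 334, 346 and 373 CPM, a ratio of 1.12 and a CV of 4.20%. Like Dlg4, it was lowest in replicate 3 and highest in replicate 5. Dlg1, which encodes SAP97, had 176, 168, 181, 185 and 165 CPM, and here replicate 5 was lowest. Dlg3, which encodes SAP102, had 165, 172, 179, 192 and 194 CPM and the largest CV of the family, 6.99%. Replicates 4 and 5 were the high libraries for Dlg3.

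SAPAP proteins bind the guanylate kinase domain of the MAGUKs. Dlgap1 had 527, 584, 597, 679 and 625 CPM, lowest in replicate 1 and highest in replicate 4 by a ratio of 1.29. Without replicate 4 this ratio was 1.19. Dlgap2 had 58.0, 67.7, 61.8, 74.0 and 61.9 CPM and shared both extremes with Dlgap1. Dlgap3 (chr4:127169204-127237022, plus strand), known from mice that groom compulsively when it is deleted, had 541.0, 537, 463, 545 and 547 CPM. A single library set its spread: 4 libraries lay between 537 and 547 CPM, and replicate 3 stood below them. Without replicate 3 the variation of Dlgap3 no longer passed the chi-square test (adjusted p = 0.304, 8.38e-88 with all libraries). Dlgap4 had 365, 388, 335, 348 and 368 CPM, with a CV of 5.54% and replicate 3 again lowest.

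All 3 SHANK genes, the deep scaffolds of the density, had their lowest level in replicate 3. Shank1 had 951, 1041, 874, 943 and 1008 CPM and was highest in replicate 2. Shank2 had 239, 236, 202, 273 and 263 CPM. Shank3 (chr15:89499623-89560261, plus strand), whose human counterpart is deleted or mutated in Phelan-McDermid syndrome, had 279.8, 274, 225, 302 and 274 CPM. For both Shank2 and Shank3 the highest library was replicate 4, and the ratios of highest to lowest were 1.35 and 1.34. Shank1 was steadier, with a ratio of 1.19. Without replicate 3 the ratios were 1.10 for Shank1, 1.16 for Shank2 and 1.10 for Shank3.

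The HOMER proteins of the list bind SHANK and group I metabotropic glutamate receptors. Homer2 (chr7:81600481-81707527, minus strand) had 73.3, 63.7, 56.3, 87.0 and 72.2 CPM, a ratio of 1.55 between replicates 4 and 3, and the second largest CV of the list at 16.2%. Its ratio was 1.365 without replicate 3 and 1.30 without replicate 4. Homer3 had 5.82, 5.28, 6.39, 4.58 and 5.33 CPM and ran the opposite way, highest in replicate 3 and lowest in replicate 4. Counting alone gives Homer3 a CV of 6.75%, and 10.2% remained beyond it. Its adjusted p of 0.0174 in the chi-square test was the nearest to the threshold of the 32 genes, and the variation was not called without replicate 3 (0.172) or without replicate 4 (0.149). Homer3 also shares 713 bases of exon with Ddx49 on the opposite strand, which stood at 14.3 CPM, above Homer3 itself at 5.48 CPM. The strand setting of the counting is not given in the sources used here. Without strand, reads within these shared bases cannot be told apart between the 2 genes. Homer3 has 3440 bases of exon in all.

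CaMKII is a holoenzyme of alpha and beta subunits that is switched on by calcium-bound calmodulin. Camk2a had 3332, 3174, 2897, 4010 and 3595 CPM. Replicates 4 and 5 were high and replicate 3 was lowest, by a ratio of 1.38 (1.26 without replicate 3 and 1.24 without replicate 4), and the CV was 12.5%. Camk2b had 732, 784, 788, 804 and 742 CPM and the smallest CV of all 32 genes, 4.02%. The 2 subunits therefore did not keep one ratio: in RPKM, Camk2a over Camk2b was 5.56, 4.95, 4.49, 6.09 and 5.92, a mean of 5.40 ± 0.672 (SD, n = 5). Nrgn had 1330, 1492, 1667, 1892 and 1421 CPM, lowest in replicate 1 and highest in replicate 4, with a CV of 14.3%. Its ratio of highest to lowest was 1.42, and 1.25 without replicate 4.

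Of the adhesion genes, the neuroligins bind presynaptic neurexins. Nlgn1, found at excitatory synapses, had 45.2, 41.9, 44.4, 59.8 and 45.5 CPM. As with Dlgap3, a single library set the spread: replicate 4 stood above the other 4, which lay within 41.9 to 45.5 CPM. Without replicate 4 its adjusted p in the chi-square test was 0.106, against 7.92e-31 with all libraries. Nlgn2, found at inhibitory synapses, was higher and steadier at 327 ± 17.7 CPM (SD, n = 5), with a CV of 5.35%. Nlgn3, found at both kinds of synapse, stood at 76.5 ± 6.49 CPM and was lowest in replicate 1 and highest in replicate 5. The leucine-rich repeat proteins Lrrtm1 and Lrrtm2 also bind neurexins and stood at 34.3 ± 4.21 and 89.7 ± 8.74 CPM. Both were highest in replicate 5. Lrrtm2 shares 95 bases of exon with Ctnna1 on the opposite strand, which stood at 59.8 CPM.

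The 3 transmembrane AMPA receptor regulatory proteins (TARPs) of the list bring AMPA receptors to synapses and slow their deactivation. Cacng2, which encodes stargazin, stood at 101.4 ± 11.2 CPM (SD, n = 5) and was highest in replicate 4 at 119 CPM. Cacng3 (chr7:122670492-122769393, plus strand) had 78.0, 83.0, 79.9, 114 and 97.2 CPM, and its CV of 16.7% was the largest of the list. Replicates 4 and 5 were high for Cacng3, and replicates 1 to 3 lay close together. Its ratio of highest to lowest was 1.46, and 1.25 without replicate 4. Cacng8 stood at 72.6 ± 5.35 CPM, with replicate 2 highest at 80.6 CPM.

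The regulators of small GTPases and of actin did not share one pattern. Agap2, an activator of GTP hydrolysis by Arf proteins, had 1543.5, 1598, 1287, 1379.7 and 1592 CPM, and Ppp1r9b, the spine protein spinophilin that anchors a phosphatase to actin, had 1605, 1587, 1363, 1475 and 1671 CPM. In both genes replicate 3 was lowest and replicate 4 second lowest. Iqsec2, an exchange factor for Arf, stood at 252 ± 26.3 CPM (SD, n = 5), and Sipa1l1, which promotes GTP hydrolysis by Rap proteins, at 463 ± 49.2 CPM. These 2 genes were lowest in replicate 3 and highest in replicate 4. Baiap2, which links Rac and Cdc42 to actin at the membrane, had 279, 291, 267, 258 and 272 CPM, a CV of 4.52%, and replicate 4 as its lowest library.

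Among the other scaffolds, Cnksr2 stood at 217 ± 29.0 CPM (SD, n = 5) with replicates 4 and 5 high, at 260.2 and 233 CPM. Lrrc7, which encodes the CaMKII-binding protein densin, stood at 64.5 ± 5.77 CPM. Its replicates 2, 4 and 5 lay between 67.7 and 69.3 CPM, and replicates 1 and 3 at 58.5 and 57.9 CPM. Begain, a protein that binds PSD-95, stood at 139.7 ± 13.7 CPM, lowest in replicate 3 at 119 CPM and highest in replicate 2 at 155 CPM.

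Windows before RefSeq starts of the genes at both ends of the spread are shown because the genes differ in how far they moved between libraries. RefSeq (GRCm38.p6) entries were at hand for 26 of the 32 genes, not for Dlgap2, Shank1, Shank2, Camk2a, Nlgn3 or Lrrtm2. Each line gives the 150 bases before the most upstream start listed in RefSeq, 5′ to 3′ on the gene's strand, and capitals mark a GC box (GGGCGG on either strand) or a TATA box (TATAAA on either strand). The first 3 have the largest CV and the last 3 the smallest. These starts lie inside the genes as GENCODE M21 annotates them: 329 to 1252 bases past the annotated gene start in 5 of the 6, and 614114 bases past it in Dlg2, so that other starts of the genes are not shown.
Cacng3, chr7:122671594-122671743, plus strand: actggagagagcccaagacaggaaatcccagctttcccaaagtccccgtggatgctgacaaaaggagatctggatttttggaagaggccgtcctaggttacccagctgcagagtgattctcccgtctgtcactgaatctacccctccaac
Homer2, chr7:81706926-81707075, minus strand: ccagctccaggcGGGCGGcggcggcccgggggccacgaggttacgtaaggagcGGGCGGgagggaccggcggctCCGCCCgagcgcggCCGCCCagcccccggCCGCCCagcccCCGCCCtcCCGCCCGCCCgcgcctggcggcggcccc
Nlgn1, chr3:26331910-26332059, minus strand: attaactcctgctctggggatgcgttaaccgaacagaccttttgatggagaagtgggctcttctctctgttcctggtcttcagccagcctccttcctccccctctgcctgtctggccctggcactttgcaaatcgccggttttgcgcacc
Camk2b, chr11:6065749-6065898, minus strand: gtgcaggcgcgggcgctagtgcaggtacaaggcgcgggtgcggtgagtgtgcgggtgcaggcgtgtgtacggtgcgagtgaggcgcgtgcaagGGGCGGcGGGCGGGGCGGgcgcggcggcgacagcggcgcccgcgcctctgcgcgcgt
Dlg2, chr7:91090636-91090785, plus strand: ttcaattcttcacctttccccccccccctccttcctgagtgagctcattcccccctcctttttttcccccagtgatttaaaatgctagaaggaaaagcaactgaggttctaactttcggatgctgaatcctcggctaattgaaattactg
Baiap2, chr11:119942942-119943091, plus strand: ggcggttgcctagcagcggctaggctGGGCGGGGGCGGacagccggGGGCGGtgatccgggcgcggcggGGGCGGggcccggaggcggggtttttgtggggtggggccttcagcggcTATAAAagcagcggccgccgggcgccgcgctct
The 2 ends did not separate by these letters. GC content was 52.7%, 86.7% and 56.0% in Cacng3, Homer2 and Nlgn1, and 78.0%, 46.0% and 77.3% in Camk2b, Dlg2 and Baiap2, so that each end held CpG-rich and CpG-poor windows. A GC box was found in Homer2 at one end and in Camk2b and Baiap2 at the other. Over the list, 15 of 26 windows (57.7%) held a GC box, against 53.5% of the 10944 windows of genes of at least 1 CPM. A CCAAT box (CCAAT) was found in 1 of 26 (3.85%) against 27.7%, a TATA box in 1 (3.85%) against 3.23%, and the cyclic AMP response element TGACGTCA in 0 against 2.53%. The shorter TGACG, which lies within that element, was found in 1 window against 20.9%. All motifs were searched on both strands, and a match is a description of the letters only. The median GC content of the windows was 61.7% in the list and 63.3% over all.

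Within each gene family, 1 paralog led the family's summed RPKM in all 5 libraries. For every paralog given here the SD of its share over libraries exceeded the SD that counting gives. Of the summed RPKM of Dlg1 to Dlg4, Dlg4 made up 53.5% ± 1.10 (SD, n = 5). It was followed by Dlg3 at 20.9% ± 0.978, Dlg2 at 14.6% ± 0.381 and Dlg1 at 11.0% ± 0.806. The order of Dlg3 and Dlg2 turned with the length used: with longest transcripts Dlg2 held 16.3% and Dlg3 13.1%, and in shares of CPM 19.97% and 10.3%. Shank1 made up 63.8% ± 2.11 of the SHANK total, Shank3 20.5% ± 1.203 and Shank2 15.7% ± 1.06. Nlgn2 held 82.7% ± 0.974 of the neuroligin total, Nlgn3 12.1% and Nlgn1 5.17%. In the CaMKII family Camk2a held 77.9% ± 2.17, between 74.6% in replicate 3 and 79.9% in replicate 5, and Camk2b held 14.6% ± 1.48, while Camk2g and Camk2d, which are not in the list, held 6.99% and 0.507%.

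In 2 families the leading gene was outside the list. Homer1 held 65.3% ± 1.93 of the HOMER total (SD, n = 5), Homer2 26.9% ± 2.56 and Homer3 7.80% ± 1.49. Cacng7 held 43.1% ± 2.28 of the TARP total, Cacng3 19.5% ± 2.67, Cacng8 18.6% ± 1.07 and Cacng2 11.0%. In shares of CPM, Cacng2 at 20.8% stood above Cacng3 at 18.6% and Cacng8 at 14.9%, and with longest transcripts Cacng8 at 21.1% stood above Cacng3 at 17.9%. The share of Cacng3 was 17.3% to 17.8% in replicates 1 to 3 and 23.4% and 21.2% in replicates 4 and 5. Among the LRRTM genes, Lrrtm2 held 39.8% ± 2.64 and Lrrtm1 30.1%, with Lrrtm3 at 26.1% and Lrrtm4 at 3.95%. For the SAPAP family the leading paralog itself depended on the scale. Dlgap3 led with 57.3% ± 1.48 of RPKM and Dlgap1 held 16.6%, but in shares of CPM, which ignore length, Dlgap1 held 38.7% and Dlgap3 33.9%. With longest transcripts as lengths the shares were 28.2% and 42.02%.

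**Figure D2:**
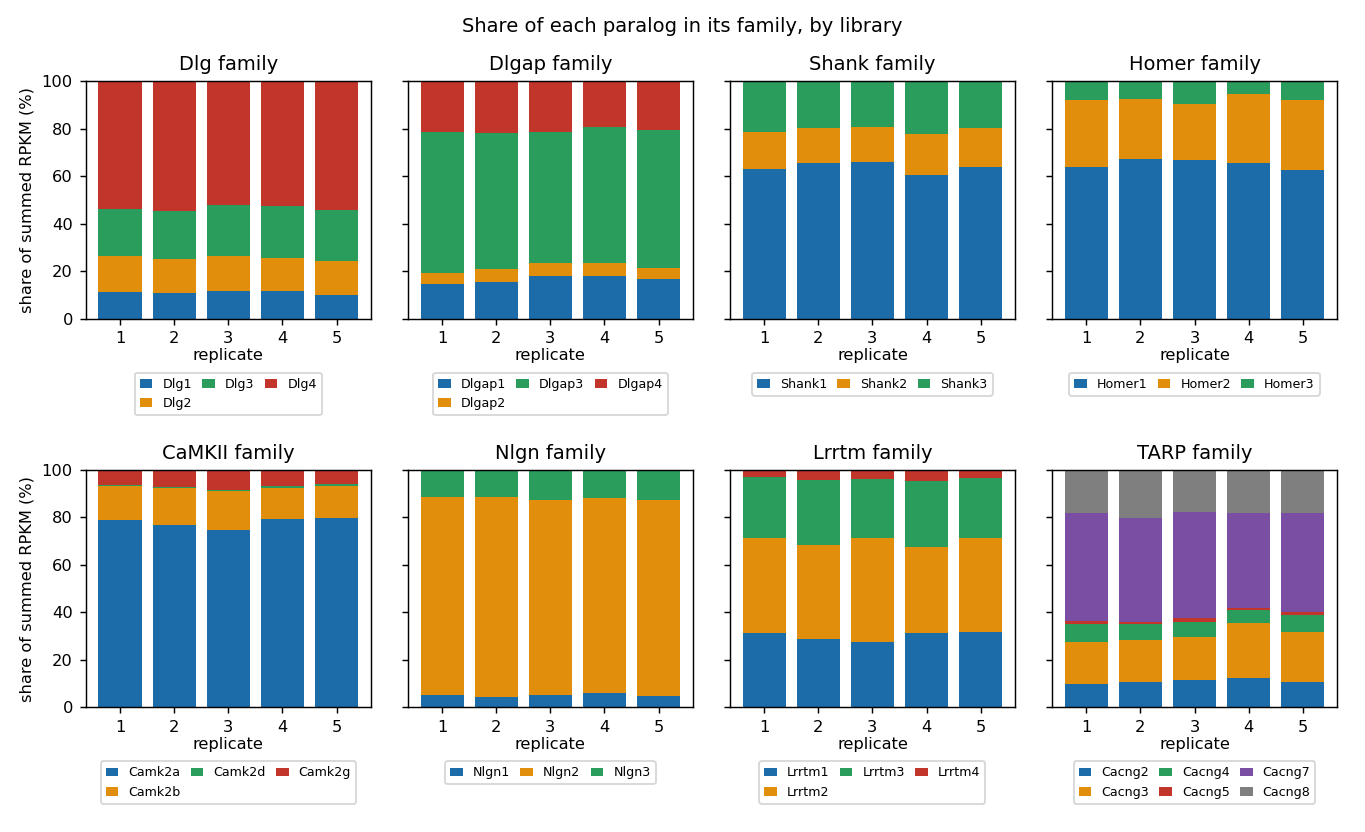
Share of each paralog in the summed RPKM of its family, in percent, with 1 stacked bar per library and 1 panel per family. The bars of a family keep their leading paralog in all libraries. Dlg4 lies between 52.4% and 54.8% of the total of Dlg1 to Dlg4, and Shank1 between 60.6% and 65.8% of the SHANK total.

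Most of the 32 genes stood higher in replicate 4 than in replicate 3. Replicates 3 and 4 were picked for this comparison after their scores were seen, as the lowest and the highest library, so the counts are given with no test. The mean log2 deviation over the 32 genes was -0.052, -0.0075, -0.093, 0.098 and 0.055 in replicates 1 to 5, with an SD of 0.077, and the highest and lowest libraries differed 1.14-fold. Of the 32 genes, 29 were higher in replicate 4 than in replicate 3, against 50.5% of the 14524 genes of at least 1 CPM. The exceptions were Homer3, Lrrtm2 and Baiap2. Replicate 4 was the highest library for 17 of the 32 genes, against 26.9% of all genes, and replicate 3 the lowest for 18, against 17.0%. Of the other libraries, replicate 5 was highest for 8 genes of the list (18.4% of all genes), replicate 2 for 6 (16.5%), replicate 3 for 1 (19.3%) and replicate 1 for 0 (18.9%). Replicate 1 was lowest for 10 genes, against 25.2% of all genes. A glutamatergic gene list that overlaps this one was known to peak in replicate 4, so the pattern is not independent of it. Without replicate 4, replicate 5 was the highest library. With trends of GC content and length removed, replicates 1 and 3 were nearly level at the low end, at -0.064 and -0.062.

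**Figure D3:**
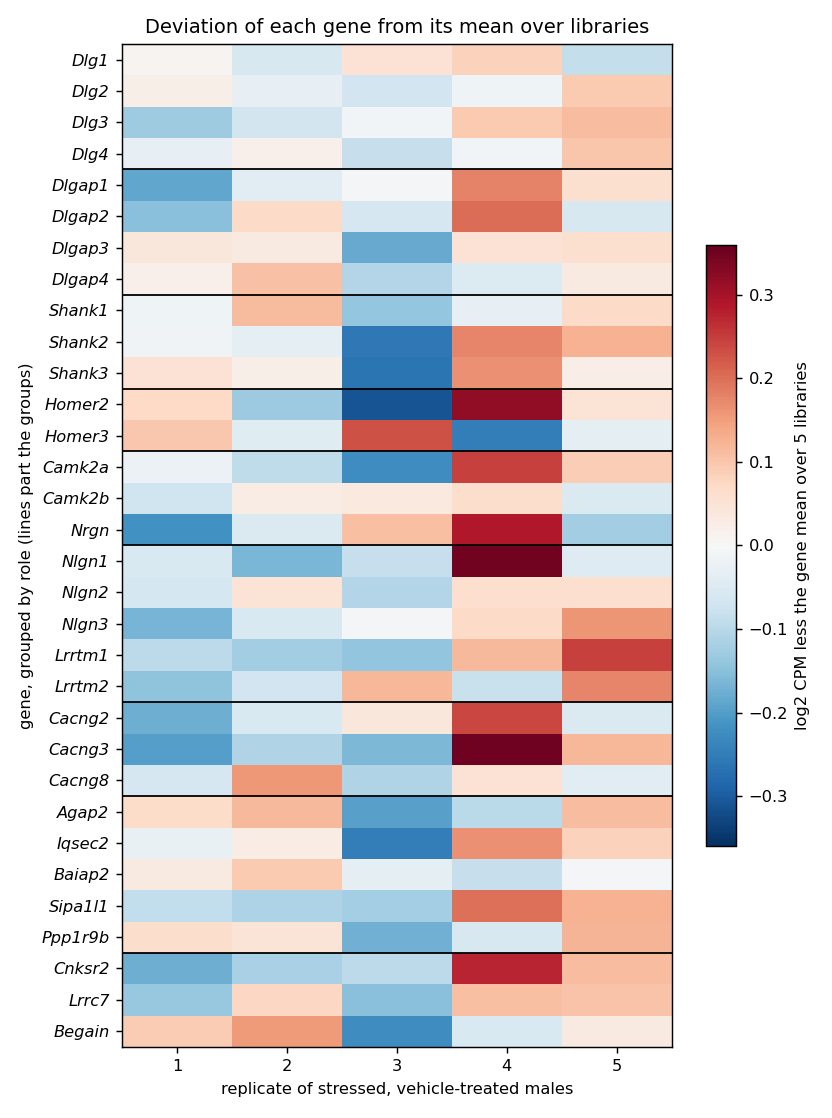
Log2 deviation of each of the 32 genes from its mean over the 5 libraries, drawn as a colour grid with genes in rows, grouped by role, and libraries in columns. The column of replicate 4 is mostly above 0 and that of replicate 3 mostly below, with Homer3 running the other way.

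The roles differed in which library was low. The 3 SHANK genes had a score of -0.22 in replicate 3 and 0.0081, 0.035, 0.10 and 0.073 in replicates 1, 2, 4 and 5. The GTPase and actin regulators stood at -0.155 in replicate 3, and between 0.0091 and 0.086 elsewhere. For the TARPs replicate 1 was lowest at -0.145 and replicate 4 highest at 0.21. The CaMKII and calmodulin genes stood at 0.20 in replicate 4 and between -0.10 and -0.027 in the other libraries. Adhesion genes were high in both replicates 4 and 5, at 0.10 and 0.12, and lowest in replicate 1 at -0.105. The MAGUK score had the smallest spread of the roles, with an SD of 0.043, against 0.128 for SHANK and 0.135 for the TARPs. Single libraries set several of these spreads. Without replicate 3 the SD was 0.042 for SHANK and 0.033 for the GTPase and actin regulators, both then under the 0.046 of the MAGUKs. Without replicate 4 it was 0.036 for the CaMKII and calmodulin genes, down from 0.116, and 0.072 for the TARPs.

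Other synaptic lists also stood above 0 in replicate 4, but not all stood below 0 in replicate 3. Over all genes of at least 1 CPM, 50.5% were higher in replicate 4 than in replicate 3. The glutamate receptor subunits scored -0.074 in replicate 3 and 0.058 in replicate 4, and 13 of 16 genes were higher in replicate 4. Their highest library was replicate 5, at 0.086. Grin2b, an NMDA receptor subunit, had 369, 499, 506, 642 and 552 CPM, and Gria2, an AMPA receptor subunit, stood at 520.1 ± 21.7 CPM (SD, n = 5). In the list of other postsynaptic density genes 24 of 25 varied by the chi-square test, against 74.4% of all genes tested, and 16 of 24 were higher in replicate 4. Its score was -0.0042 in replicate 3 and 0.043 in replicate 4. Presynaptic genes were lowest in replicate 1, at -0.15, with 14 of 20 higher in replicate 4 than in replicate 3. Scaffold genes of inhibitory synapses reached 0.20 in replicate 4 against -0.000042 in replicate 3, with 8 of 10 higher. Markers of excitatory neurons scored -0.040 in replicate 3 and 0.010 in replicate 4, though 3 of 8 were higher in replicate 4. The extremes of this list were -0.068 in replicate 1 and 0.12 in replicate 5. Markers of inhibitory neurons scored 0.026 in replicate 3 and 0.083 in replicate 4, with 4 of 8 higher in replicate 4.

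**Figure D4:**
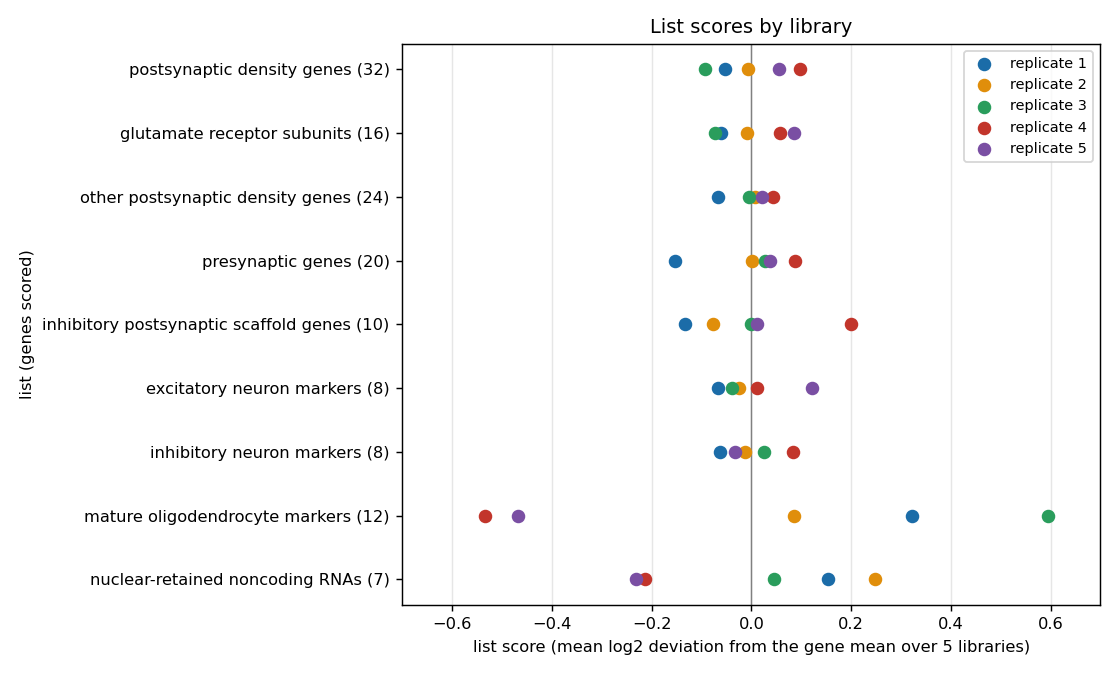
List score, the mean log2 deviation from the gene mean over 5 libraries, for the 32 postsynaptic density genes and 8 other lists, one point per library. The 32 genes lie between -0.093 and 0.098, whereas the oligodendrocyte markers run from -0.54 in replicate 4 to 0.60 in replicate 3.

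Markers of several other cell types also differed between replicates 3 and 4, but some lists had their extremes in other libraries. All 12 markers of mature oligodendrocytes, which form myelin, were lower in replicate 4 than in replicate 3. Their summed level ran from 4375 to 9551 CPM, and Mbp, a major myelin protein, had 3112, 2853, 3991, 1857 and 1808 CPM. All 11 leptomeningeal and fibroblast markers of at least 1 CPM and all 7 blood markers of at least 1 CPM were higher in replicate 4, with sums from 59.9 to 146.5 CPM and from 104.1 to 205.8 CPM. Endothelial markers were higher in replicate 4 for 8 of 10 genes, microglia markers for 8 of 10, astrocyte markers for 7 of 10 and mitochondrially encoded genes for 13 of 13. The astrocyte score was nearly the same in replicates 3 and 4, at -0.00615 and -0.00866. Its extremes were 0.17 in replicate 1 and -0.101 in replicate 2. The microglia score was highest in replicate 1 at 0.127 and lowest in replicate 3 at -0.117. Mitochondrially encoded genes were lowest in replicate 2 at -0.142 and highest in replicate 4 at 0.165. None of the 7 nuclear-retained noncoding RNAs was higher in replicate 4, and Meg3 among them had 4725, 4818, 3443, 2961 and 3262 CPM. The part of these cell types and RNAs in the scores of the 32 genes was not tested. In bulk tissue, fewer cells of a type and less RNA per cell cannot be told apart.

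GC content moved with the deviations as well. The median GC content of the longest transcript was 54.7% in the list, from 38.4% for Lrrtm2 to 65.0% for Cacng8, against 49.7% over genes of at least 1 CPM. Across the 32 genes, Pearson's r between GC content and the log2 deviation was 0.37, 0.67, -0.27, -0.34 and -0.14 in replicates 1 to 5. Across 14477 genes it was 0.13, 0.22, -0.14, -0.15 and -0.0035, so the sign was the same in each library. Genes of one library share its depth and composition and are not independent replicates, and these values are descriptions. The 16 genes of the list above the median GC content scored -0.12 in replicate 3 and 0.041 in replicate 4. The other 16 scored -0.067 and 0.15. The higher level in replicate 4 held in both parts, for 14 and 15 of 16 genes. Replicate 3 was the lowest library for 12 of the 16 GC-rich genes and for 6 of the other 16, and replicate 4 the highest for 6 and 11. With trends of GC content and length removed together, the score of the 32 genes was -0.0622 in replicate 3 and 0.1235 in replicate 4. Without that correction it was -0.093 and 0.098. The SD of the score was 0.0832 with the correction. What GC content by itself contributes to the scores was not tested.

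**Figure D5:**
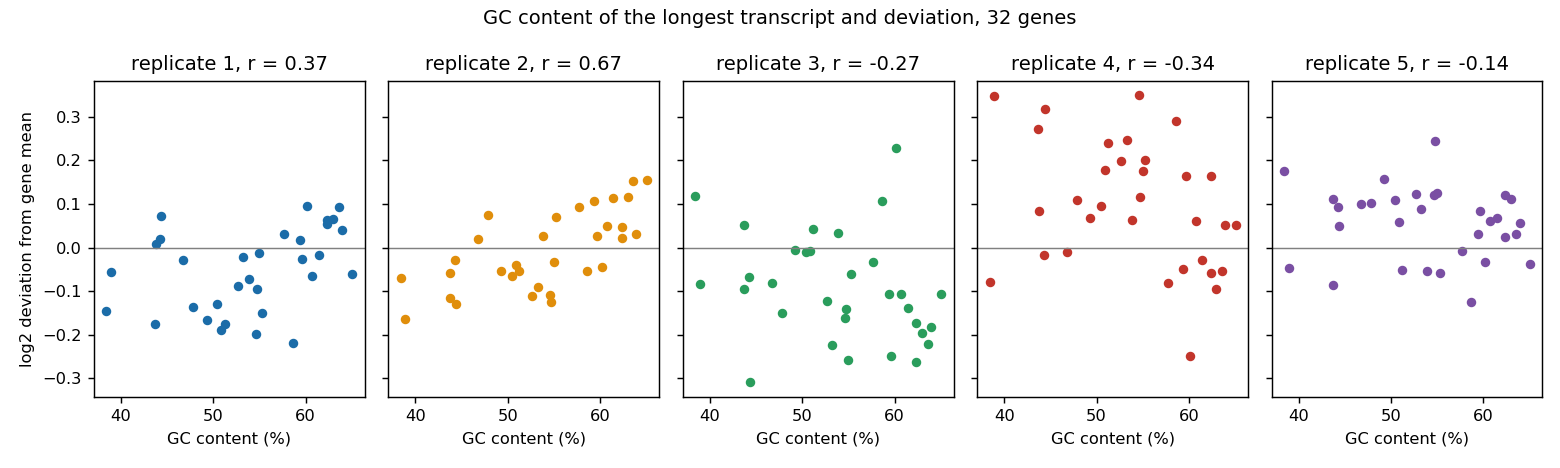
Log2 deviation of each of the 32 genes from its mean over 5 libraries against the GC content of its longest transcript in percent, with 1 panel per library and Pearson's r above each. The points slope upwards in replicate 2 (r = 0.67) and downwards in replicate 4 (r = -0.34).

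Exons of 13 of the 32 genes overlapped those of another annotated gene, 10 of them on the opposite strand, and for 9 the other gene was in the table. Apart from Ctnna1 and Ddx49, given above, the overlapping genes in the table stood at no more than 3.72 CPM, the level of A730060N03Rik beside Cacng2. Overlapping genes that were not in the table have no level here.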

How the data were processed

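Bulk RNA-seq of mouse prefrontal cortex was analysed for the 5 libraries of the males with social defeat stress and vehicle. The deposited table holds 25 columns of per-sample values. Of these, 20 could not be tied to a sample and were not used. Per the submitters' processing notes, STAR 2.6.1d, SAMtools 1.9, featureCounts, Subread 1.6.3 and edgeR were used with builds mm10 and GRCm38. Not given in the sources used here are the annotation release, strand setting and gene filter. The deposited values are log2 CPM (counts per 1000000 reads), from the values themselves: each equals log2 of the reads plus 0.5 after scaling to an effective library size, and 100% of values gave whole reads within 1e-06.

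Reads were recovered from these values, and CPM was computed with the effective library sizes, which were 0.998 to 1.04 of the totals. RPKM used the union of exons in GENCODE M21 (GRCm38), and 23856 of 23990 identifiers were annotated. Variation between libraries was tested for each gene with a chi-square test (4 degrees of freedom, at least 5 reads on average, Benjamini-Hochberg adjustment, threshold 0.05), which covers counting error only. Spread, scores and GC values used genes of at least 1 CPM. Fold changes between groups were not made. The members and lists were chosen with earlier results of these data known. All 32 genes are named. Values of every library are given for the scaffold families, CaMKII, and the extremes in spread and level, as well as for genes that stood out after their values were seen. From other lists at most the 2 most abundant genes are named, apart from paralogs and genes with overlapping exons. Alternatives were other scalings, filters, amounts added before the log, gene lengths, values corrected for GC and length trends, and each library left out in turn. The scripts ran under scipy 1.17.1, pandas 2.3.3, numpy 2.4.6, matplotlib 3.10.9 and Python 3.11.15 and were tested on simulated data.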

Additional observations from a re-analysis of the deposited data

Results flagged for a closer look

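In 4 of 66 items (genes, paralog shares and role scores) 1 library of the 5 lay far from the rest by Dixon's criterion at 0.71, the gap to the nearest library over the whole range. Chance flags about 1 in 20 groups, or 3.3 of 66. Dlgap3 had 463 CPM in replicate 3, against 537 to 547 CPM in the others (gap over range 0.884). Nlgn1 had 59.8 CPM in replicate 4, against 41.9 to 45.5 CPM (0.801). The share of Cacng8 in the TARP total was 20.5% in replicate 2, against 17.7% to 18.3% (0.804). The score of the CaMKII and calmodulin genes was 0.20 in replicate 4, against -0.10 to -0.027 (0.747).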

How the results depend on the processing

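Under other scalings and read minimums, all 32 genes kept their call in the chi-square test, and 30 did without replicate 3 and without replicate 4. The calls lost were those of Dlgap3, Homer3 and Nlgn1 named with their values in the report. Over all genes the test called 14293 of 19239 with total reads and 14303 of 19239 with a median of ratios. With at least 20 reads it called 12693 of 15914. It called 12899 of 19213 genes without replicate 3 and 12758 of 19382 without replicate 4. The median CV of the list ran from 6.88% (without replicate 3) to 10.1% (without replicate 2), and the SD of the score from 0.0633 (without replicate 4) to 0.0892 (without replicate 2). The score in replicate 2, -0.0075 as reported, was -0.0307 without replicate 3, 0.0169 without replicate 4 and 0.0062 without replicate 5, and -0.045 with GC and length trends removed. The count of 29 genes higher in replicate 4 than in replicate 3 was also found with total reads, with a median of ratios and with GC and length trends removed, alternatives chosen after seeing the data, as were the ratios and role scores without replicate 3 or 4. Scaling moved the median gene by at most 0.039 on the log2 scale.

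Paralog shares depended on gene length. With longest transcripts they were 60.2% for Dlg4, 42.02% for Dlgap3, 60.6% for Shank1, 17.4% for Homer2 and 71.6% for Camk2a. In shares of CPM they were 59.8% for Dlg4, 33.9% for Dlgap3, 29.5% for Homer2, 75.5% for Camk2a, 72.5% for Nlgn2 and 51.4% for Lrrtm2. The length enters these shares by construction. No paired analysis was possible because the columns of a single group carry a sample here. Depth limits Homer3 most, which has the fewest reads of the list.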
